A study of Homo sapiens with 5 samples.

Results

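Mature oligodendrocytes of the mouse host were picked out of single-cell libraries made from human brain organoids that had been grafted into the mouse brain. They were 683 of 4961 host cells (13.8%), out of 40966 cell barcodes read against a joint human and mouse reference. A barcode counted as a host cell when it held over 500 mouse UMIs (unique molecular identifiers, each standing for 1 captured transcript) and under 20% human UMIs. A host cell counted as an oligodendrocyte when 4 or more of 7 genes were detected, namely Mal, Cldn11, Mobp, Mog, Mag, Opalin and Ermn. The cells were thus chosen by the detection of these 7 genes in this same data, so their levels and shares against other host cells are a description and carry no test. Tests were made between stages and sites, and of whether the stage difference itself differed from that in other host cells.

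The grafts were organoids of the human embryonic stem cell line H9 (H9: AAVS-ChR2-EYFP), a line that carries a fluorescent channelrhodopsin transgene. They were placed in both hemispheres of SCID-Beige mice a few weeks old, in the prefrontal cortex (PFC) or the hippocampus (HIP). SCID-Beige mice lack functional T and B lymphocytes. Tissue was cut out under EYFP fluorescence at 2 or 4 months post transplantation (MPT) and digested with Trypsin-EDTA, and mice were pooled into 1 library for each site and stage, called HIP_2MPT, PFC_2MPT, HIP_4MPT and PFC_4MPT. All host cells therefore came from within or around a graft, no library of ungrafted brain was analysed here, and the hosts were 2 months older at 4MPT, so that the stage of the graft and the age of the host cannot be told apart. The 2 libraries of a stage came from different sites and stood in for replicates, so a p-value measures only the spread between libraries, which holds the site and any technical difference.

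Oligodendrocytes wrap axons of the central nervous system in myelin, a stack of lipid-rich membranes held together by proteins such as myelin basic protein (Mbp). They arise from progenitors that carry Pdgfra and Cspg4, pass through a newly formed state marked by Enpp6 and Bcas1, and as mature cells feed axons, take up iron and build cholesterol and sphingolipids. They also respond to injury and inflammation, among others by raising MHC class I, Serpina3n and C4b.

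The 4 libraries contributed unequally. At 2MPT the hippocampus gave 92 oligodendrocytes with 97602 mouse UMIs and the prefrontal cortex 59 with 153592. At 4MPT they gave 296 with 1039934 and 236 with 703444. The median cell had 969 mouse UMIs in HIP_2MPT, against 2622, 3214 and 2756 in PFC_2MPT, HIP_4MPT and PFC_4MPT. HIP_2MPT stood apart from the other three: its cells were the shallowest, held a median of 13.5% human UMIs against 2.27% to 7.83% elsewhere, and correlated with the other libraries across 1603 genes at a Pearson r of 0.755 to 0.821, where pairs of the other three reached 0.884 to 0.911. Genes are not independent replicates, so these r values only describe the libraries. No cell barcode among the oligodendrocytes was shared between libraries (0 in each of the pairs compared). Mitochondrial transcripts made up a median of 5.67%, 3.08%, 3.78% and 8.40% of mouse UMIs in HIP_2MPT, PFC_2MPT, HIP_4MPT and PFC_4MPT.

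Most host cells held either few or many of the 7 genes, a description of the rule's own values. Of 4961 host cells, 4204 (84.7%) had 0 or 1 of the genes and 74 (1.49%) had 2 or 3, while 562 of the 683 oligodendrocytes (82.3%) had 6 or 7. In both hippocampal libraries the edge was less sharp. HIP_2MPT had 3 cells at 2 genes, 9 at 3 and 22 at 4, among 916 host cells. HIP_4MPT had 33 cells at 2 genes, 19 at 3 and 7 at 4, among 2071. The 37 cells just inside the threshold, with 4 genes, held Mbp at 4333 CPM (counts per 1000000 mouse UMIs of the cells summed) and Ttr, the transthyretin transcript of the choroid plexus, at 32486 CPM. Of these cells 22 came from HIP_2MPT and 7 from HIP_4MPT, and nearly all of the Ttr came from the latter, since oligodendrocytes of the other libraries held 2 UMIs of Ttr in all. The 28 cells just outside it, with 3 genes, held Mbp at 1254 and Ttr at 367160 CPM. The cells just outside came from the hippocampal libraries alone, 9 from HIP_2MPT and 19 from HIP_4MPT.

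**Figure D1:**
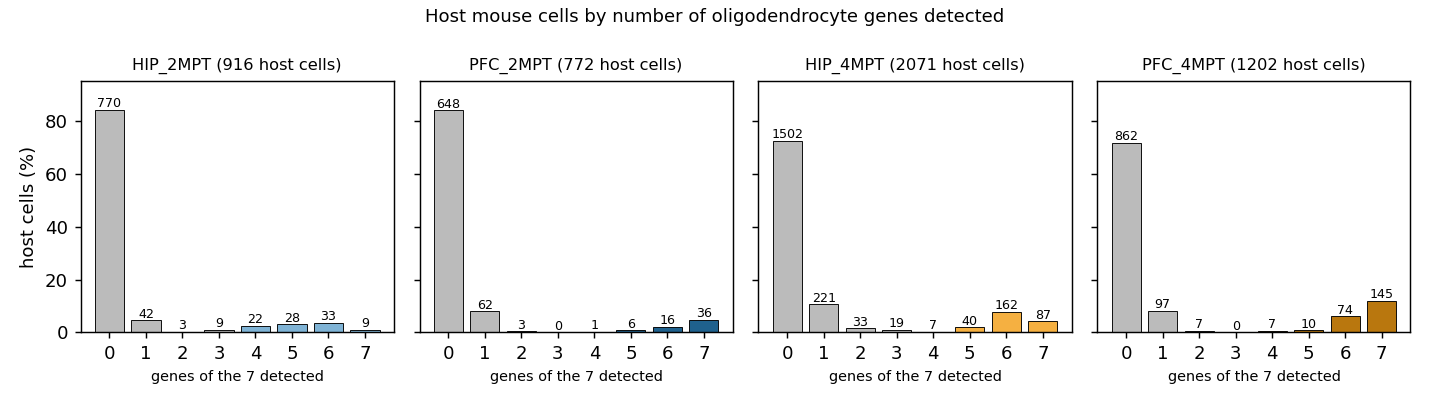
Host mouse cells of each library by how many of the 7 oligodendrocyte genes were detected (x axis), as a percentage of the library's host cells (y axis), with the number of cells above each bar and the cells called oligodendrocytes in color. In every library the cells fall into a large group with 0 or 1 gene and a small group with 4 to 7, and in HIP_2MPT the second group sits lower, with 9 cells at 7 genes.

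Markers that the rule did not use were those of a mature oligodendrocyte. Mbp stood at 5020, 5176, 4291 and 5248 CPM in HIP_2MPT, PFC_2MPT, HIP_4MPT and PFC_4MPT, levels that lay close together. The progenitor genes Pdgfra and Cspg4 had 1 and 4 UMIs among all 683 cells. The newly formed oligodendrocyte gene Enpp6 was present at 75.0 to 215 CPM and Bcas1 at 331 to 482 CPM, while Gpr17, a receptor of committed precursors, had 5 UMIs, all in PFC_4MPT. The growth factor gene Igf1 was at 0 in all libraries.

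RNA of other cells was also read in these cells. Of the 683 oligodendrocytes, 72 (10.5%) carried 3 or more markers of another type, 45 of them microglial markers, and no doublet caller was run. The 12 microglial markers together made up 2029 and 1208 CPM in HIP_2MPT and HIP_4MPT and 534 and 614 CPM in PFC_2MPT and PFC_4MPT. The most abundant of them, the complement gene C1qa, stood at 553, 117, 314 and 134 CPM by library (HIP_2MPT, PFC_2MPT, HIP_4MPT, PFC_4MPT), against 8078, 7962, 10016 and 8985 CPM in microglia-like host cells (host cells with 4 or more of the 12 markers). Mouse UMIs in the grafted human cells, a measure of free mouse RNA that may also hold cross-mapped human reads, gave C1qa at 4411, 1752, 2753 and 1070 CPM. The order by library was that in the oligodendrocytes except that the 2 PFC libraries changed places. In these human cells the 13 mitochondrial mRNAs made up 377447, 504882, 353386 and 690749 CPM of mouse UMIs, against 33543 to 83533 CPM in oligodendrocytes. This lowers the CPM of other genes in human cells, by an amount that differs between libraries. The part of cross-mapped human reads was not tested. In HIP_4MPT all 296 oligodendrocytes held choroid plexus transcripts, with Ttr at 9260 CPM there and 0, 0 and 2.84 CPM in the other libraries. A few cells carried most of it, since 4 cells held 5882 of the 9669 choroid plexus UMIs there and the median cell held 11. In HIP_2MPT 1244 of 1263 red cell UMIs lay in 2 cells. Endothelial markers summed to 10.2 to 26.0 CPM in the 4 libraries (led by Ly6c1, with 4 of 8 genes, Cldn5 and Cdh5 among them, at 0 in all libraries). Lymphocyte markers summed to 81.97 CPM in HIP_2MPT (led by Ccl5, with Cd3e and 6 other genes of 9 at 0 in all libraries) and to at most 1.42 CPM elsewhere. Fibroblast markers reached at most 1.92 CPM (4 of 6 genes at 0) and macrophage markers at most 2.84 CPM (5 of 7 at 0). Astrocyte markers summed to 82.0, 156, 149 and 304 CPM in HIP_2MPT, PFC_2MPT, HIP_4MPT and PFC_4MPT, and 10 oligodendrocytes carried 3 or more of them. Of these markers Aldoc was higher at 4MPT without overlap but was not called (edgeR, log2 fold change 2.79, adjusted p = 0.275). Mural markers summed to 0 to 117 CPM. Schwann cell markers, led by Pmp22, summed to 410 to 690 CPM, above the 107 to 336 CPM of other host cells. Whether this sum came from other cells was not tested.

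Genes that stood farthest above other host cells were ranked next, as a description. There were 1149 genes with at least 100 CPM in the oligodendrocytes of every library. With the genes of the rule set aside, the 15 with the largest ratio to other host cells included Klk6, Tnni1, 4930420G21Rik, Spock3, Hapln2, Gjb1, Aspa, Tmem88b, A330015K06Rik, Cntn2, Tspan2, Slc24a2, Zfp804b and Nkx6-2. Klk6, a secreted serine protease of mature oligodendrocytes, had 351 UMIs in the 683 oligodendrocytes and 3 UMIs in all other host cells, a ratio of CPM of 817 (95% Poisson counting interval 277 to 3983). Tnni1, known as the troponin subunit of slow skeletal muscle, had 254 UMIs against 4 and lay at 174, 143, 123 and 124 CPM in HIP_2MPT, PFC_2MPT, HIP_4MPT and PFC_4MPT. Its level differed little from library to library.

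Several of the 15 genes act where myelin meets the axon or a neighboring cell. Gjb1, a gap junction protein that couples oligodendrocytes to other glia, reached 364 to 534 CPM. Hapln2, a link protein of the matrix at nodes of Ranvier, and Cntn2, an adhesion molecule beside the nodes, lay at 352 to 490 and 212 to 297 CPM. Aspa, which splits N-acetylaspartate into acetate for lipid synthesis, reached 492 to 820 CPM and was 270 times its mean in other host cells. The exchanger gene Slc24a2 was 215 times and the transcription factor gene Nkx6-2 was 211 times its mean in other host cells. For the genes of the rule this ratio ran from 79.9 for Mag to 658 for Ermn, values that the rule itself favored.

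Oligodendrocytes made up a larger share of the host cells at 4MPT than at 2MPT in both sites, with 1 library per site and stage. They were 92 of 916 host cells in HIP_2MPT (10.0%, Clopper-Pearson 95% interval 8.17 to 12.2) and 59 of 772 in PFC_2MPT (7.64%, 5.87 to 9.75). At 4MPT they were 296 of 2071 in HIP_4MPT (14.3%, 12.8 to 15.9) and 236 of 1202 in PFC_4MPT (19.6%, 17.4 to 21.99). The mean share was 8.84% ± 1.70 (SD, n = 2 libraries) at 2MPT and 17.0% ± 3.78 (n = 2) at 4MPT, and the ranges did not overlap. An exact two-sided permutation test gave p = 0.333, the smallest that 2 libraries against 2 can give, so this design cannot pass a threshold of 0.05.

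The share depended on depth, since a deeper cell shows more of the 7 genes. With every host cell thinned to 500 mouse UMIs before the rule was applied, the shares were 6.44%, 5.18%, 7.53% and 13.7% in HIP_2MPT, PFC_2MPT, HIP_4MPT and PFC_4MPT. The 4MPT libraries were still above the 2MPT libraries, but the difference of the means was 4.82 percentage points in place of 8.12, and the intervals of HIP_2MPT and HIP_4MPT overlapped. Thinning to 1000 UMIs, which left out shallower cells, gave 6.29%, 8.31%, 14.9% and 19.9%. The denominator mattered as well: HIP_4MPT held choroid plexus cells, and without host cells carrying 3 or more choroid plexus markers its share was 17.1%. The share also depends on how much brain was cut out with the graft, which was not tested.

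**Figure D2:**
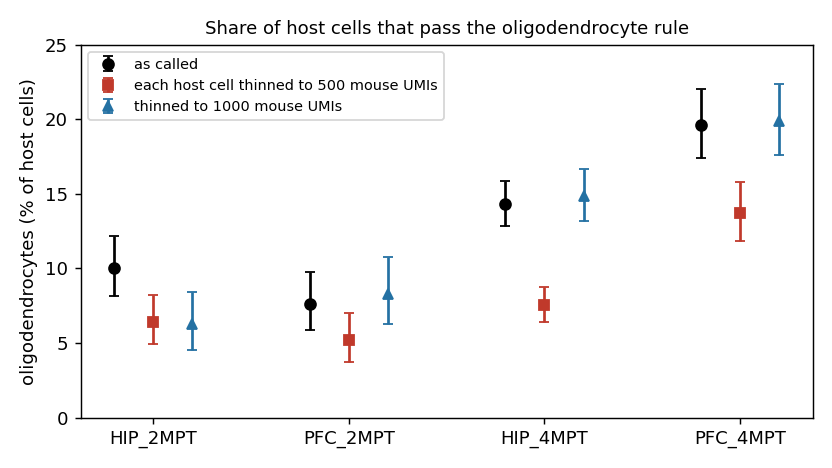
Oligodendrocytes as a percentage of host cells (y axis) in each library (x axis), as called, after thinning every host cell to 500 mouse UMIs, and after thinning to 1000, with Clopper-Pearson 95% intervals that cover counting error only. The 4MPT libraries lie at 14.3% and 19.6% as called and at 7.53% and 13.7% after thinning to 500 UMIs, where HIP_4MPT comes close to the 6.44% of HIP_2MPT.

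Between the stages, 4 genes were higher and 1 was lower in oligodendrocytes at 4MPT among 5462 genes tested by edgeR's quasi-likelihood test on sums per library with Benjamini-Hochberg adjustment. That is 0.0732% of genes called higher and 0.0183% called lower. Without an adjustment 300 genes had p under 0.05. The genes called higher were Sgk1, Phactr3, Cdkn1a and Pcdh11x, and the gene called lower was H2-Q4.

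Sgk1, a serine/threonine kinase induced by serum and glucocorticoids, stood at 236 and 664 CPM at 2MPT (HIP, PFC) and at 2119 and 2476 CPM at 4MPT. Both 4MPT libraries were at least 3-fold above both 2MPT libraries, with a log2 fold change of 2.41 ± 0.38 (SE, adjusted p = 0.00581). At an equal depth of 1000 mouse UMIs a cell, 21.4% and 42.1% of oligodendrocytes at 2MPT and 77.6% and 86.8% at 4MPT held a UMI of Sgk1. The difference thus lay in many cells and not in a few rich ones, as the richest cell of each library held at most 8.82% of its Sgk1 UMIs. Among microglia-like cells thinned alike, 22.3%, 44.6%, 33.4% and 39.1% held a UMI, and in the grafted human cells, whose median was 20 to 127 mouse UMIs, at most 2.23% did. Unthinned, the shares of oligodendrocytes were 19.6%, 57.6%, 93.9% and 98.3%.

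Phactr3, which encodes a regulator of protein phosphatase and actin, had 51.2, 91.2, 513 and 347 CPM in HIP_2MPT, PFC_2MPT, HIP_4MPT and PFC_4MPT. Its log2 fold change was 2.61 ± 0.41 (adjusted p = 0.00581), and it was nearly absent from microglia-like cells (0 to 1.05 CPM). Pcdh11x, a protocadherin, had 20.5, 52.1, 315 and 183 CPM, from 2, 8, 328 and 129 UMIs. Its log2 fold change was 2.75 ± 0.49 (adjusted p = 0.0130). For both genes the stages did not overlap, and the 2MPT values rested on few molecules.

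Cdkn1a, which encodes the cell cycle inhibitor p21, had 102, 32.6, 735 and 247 CPM, with a log2 fold change of 3.06 ± 0.55 (adjusted p = 0.0130). The 2 libraries of 4MPT differed about 3-fold from each other, HIP_4MPT being the higher. At equal depth 2.38% of oligodendrocytes in HIP_2MPT and 0 of 57 in PFC_2MPT held a UMI, where a count of 0 allows a share of cells with a UMI of up to 5.26% at that depth, against 46.9% in HIP_4MPT and 22.2% in PFC_4MPT. Unthinned, the shares were 2.17%, 5.08%, 76.4% and 40.3%. In HIP_2MPT 9 of the 10 UMIs came from 1 cell. Without the 72 cells that carried markers of another type the log2 fold change was 5.31, and without 1 library it ran from 2.05 (HIP_4MPT left out) to 4.03 (HIP_2MPT left out). Microglia-like cells ran the other way, at 632, 376, 173 and 336 CPM.

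H2-Q4, an MHC class I gene, had 143, 78.1, 11.5 and 1.42 CPM from 14, 12, 12 and 1 UMIs, and a log2 fold change of -3.77 ± 0.64 (adjusted p = 0.0115). Free mouse RNA in human cells gave 121, 18.1, 14.3 and 7.35 CPM of this gene, also highest in HIP_2MPT. On this scale, which mitochondrial mRNAs lower in human cells, the level was above that in oligodendrocytes in both 4MPT libraries. The part of free RNA in this call was not tested. The sequence of H2-Q4 is close to those of other class I genes, between which the reads may be split.

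The calls leaned on single libraries and on the scaling. Without HIP_2MPT, Cdkn1a stayed past the threshold (2 genes higher, 2 lower in that fit) while Sgk1, Phactr3 and H2-Q4 moved to adjusted p = 0.0518 and Pcdh11x to 0.13, with log2 fold changes of 1.92, 2.36, -3.30 and 2.38. Without PFC_4MPT 35 genes were higher and 27 lower, without HIP_4MPT 16 and 33, and without PFC_2MPT 12 and 39, and H2-Q4 then had adjusted p = 0.0626 without PFC_4MPT. No gene passed when the site was taken as a block (250 genes at an unadjusted p under 0.05, smallest adjusted p = 0.536) or when library sizes were not scaled by TMM (adjusted p = 0.0729 for Sgk1), while DESeq2 called 2 genes higher (Sgk1 and Phactr3) and 1 lower (H2-Q4). For Sgk1 the log2 fold change was 1.92 without HIP_2MPT and 3.37 without PFC_2MPT, and every other alternative lay between. With 1 library left out Phactr3 ran from 2.29 to 3.15, Pcdh11x from 2.28 to 3.68 and H2-Q4 from -5.86 (without HIP_4MPT) to -3.10 (without PFC_4MPT).

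**Figure D3:**
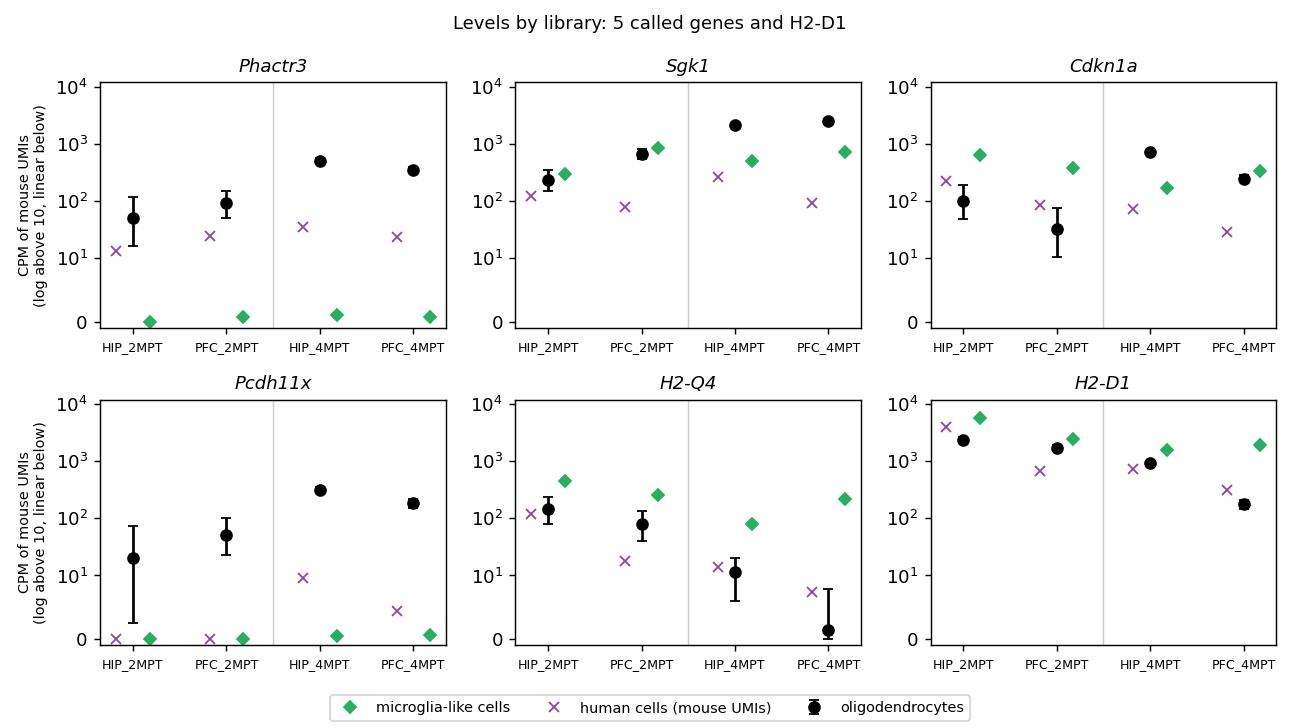
CPM of mouse UMIs (y axis, logarithmic above 10, linear below) by library (x axis) for the 5 genes called between stages and H2-D1. Circles with 95% Poisson intervals are oligodendrocytes and diamonds are microglia-like host cells. Crosses are grafted human cells, whose mouse UMIs include free RNA and may include cross-mapped human reads. Sgk1 rises in oligodendrocytes from 236 and 664 to 2119 and 2476 CPM while microglia-like cells stay between 303 and 836 CPM.

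No myelin gene was called between stages. The 18 genes of a second myelin list, 1 of which (Mobp) also belongs to the rule, had a median log2 fold change of -0.01, beside 0.02 for all genes tested. For the 7 genes of the rule the median was 0.00, which the choice of cells by these genes conditions. Cnp, an enzyme of noncompact myelin, stood at 3494, 3731, 2781 and 3693 CPM in HIP_2MPT, PFC_2MPT, HIP_4MPT and PFC_4MPT. The small heat shock protein gene Cryab had 4928, 5170, 10882 and 5277 CPM, so that HIP_4MPT held a level about 2-fold above each of the others, and Opalin, a gene of the rule, had 912, 788, 221 and 796 CPM, with HIP_4MPT the low library. Pllp, which encodes plasmolipin, was likewise low in HIP_4MPT alone, at 312 CPM against 1042 to 1137. Neither Cryab (adjusted p = 0.897) nor Pllp (0.998) was called between the stages.

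The transcription factors and stage markers of the lineage did not pass the test either. Of 11 lineage transcription factor genes tested, 0 were called, 4 were lower at 4MPT without overlap between the stages (background 19.8% of all genes) and 1 was higher (background 15.4%). St18, the most abundant of them, had 912, 762, 706 and 594 CPM. Sox10, which specifies the lineage, had 348, 299, 245 and 173 CPM and Myrf, which drives myelin genes, 205, 176, 164 and 125 CPM. In all 3 genes the 4MPT libraries lay below the 2MPT libraries, with adjusted p = 0.998 for St18 and Myrf and 0.985 for Sox10. Among 9 newly formed oligodendrocyte genes tested, 0 were called, 1 was higher without overlap (Fyn, a kinase of the Src family, 10.2, 19.5, 45.2 and 39.8 CPM, adjusted p = 0.891) and 3 were lower, Bcas1 (482, 430, 420 and 331 CPM) and Enpp6 (215, 189, 75.0 and 172 CPM) among them, and the median log2 fold change was -0.21.

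Genes of 2 groups of mature oligodendrocytes, one marked by Klk6 and one by Ptgds, were also tested. Of 8 genes of the Klk6 group 0 were called, with a median log2 fold change of 0.17. Klk6 itself had 195, 137, 213 and 128 CPM, and Serpinb1a, a protease inhibitor, 482, 612, 198 and 417 CPM. Of 14 genes of the Ptgds group 0 were called, with a median of 0.02. Ptgds, prostaglandin D synthase, had 10768, 11068, 25517 and 11026 CPM, high in HIP_4MPT alone, while the lipocalin gene Apod had 2059, 1667, 1727 and 2110 CPM and the transferrin gene Trf 3945, 4304, 3478 and 4013 CPM. Grafted human cells of HIP_4MPT also held mouse Ptgds in 18.6% of cells, against 1.08% to 4.89% in the other libraries.

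Lipid synthesis genes showed no called difference. Of 18 cholesterol genes tested, 0 were called, 4 were higher at 4MPT without overlap (background 15.4%) and 3 lower (background 19.8%), both near the share of all genes, and the median log2 fold change was 0.24. Fdps, farnesyl diphosphate synthase, had 195, 176, 206 and 327 CPM, and Hmgcs1, an early enzyme of the mevalonate pathway, 154, 143, 138 and 212 CPM. Of 22 sphingolipid and fatty acid genes 0 were called, with 3 higher and 3 lower without overlap (background 15.4% and 19.8%) and a median of 0.11. Scd2, a stearoyl-CoA desaturase, had 881, 1165, 867 and 1109 CPM. The ferritin heavy chain gene Fth1, one of 3 iron genes tested and the most abundant gene named here, had 26690, 32671, 38719 and 38478 CPM (adjusted p = 0.998).

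Genes of axon contact, transport, cytoskeleton and trophic support likewise had 0 calls. The medians were 0.08 over 13 gap junction and transport genes, -0.08 over 10 adhesion genes, -0.11 over 19 cytoskeletal genes and -0.06 over 12 trophic genes. Car2, carbonic anhydrase, had 2828, 4681, 2742 and 3223 CPM, and Stmn1, a microtubule regulator, 2613, 2956, 2431 and 3423 CPM. Tppp3, a tubulin polymerization protein, had 348, 280, 594 and 742 CPM, with both 4MPT libraries above both 2MPT libraries, but did not pass the test (adjusted p = 0.275). Of the 13 mitochondrial mRNAs 0 were called, and their sum was 56269, 33543, 37506 and 83533 CPM. The part of cross-mapped human reads in this sum was not tested.

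No gene of stress or heat shock passed the test. Of 13 heat shock genes 6 were higher at 4MPT without overlap (46.2%, background 15.4%) and 1 was lower, 0 were called, and the median log2 fold change was 0.71. The chaperone gene Hsp90ab1 had 1229, 2103, 3382 and 1268 CPM and Hspa8 1281, 1517, 2215 and 1373 CPM, both with HIP_4MPT highest and PFC_4MPT within the range of the 2MPT libraries. Summed over the list the levels were 4170, 5436, 9198 and 4619 CPM, so by this sum HIP_4MPT stood above the other libraries and PFC_4MPT did not. Of 16 genes of endoplasmic reticulum and integrated stress 7 were higher without overlap (43.8%) and 1 lower, with a median of 0.49. Hsp90b1, an endoplasmic reticulum chaperone and the most abundant of them, had 225, 410, 677 and 290 CPM. Ddit4, an inhibitor of mTOR complex signaling, had 61.5, 91.2, 304 and 236 CPM and came closest (log2 fold change 1.86 ± 0.40, adjusted p = 0.0710).

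The reactive oligodendrocyte list held 2 of the called genes, Sgk1 and Cdkn1a, and its other 9 tested genes did not pass (0.0732% of all genes were called higher). Of the 11 genes 4 were higher at 4MPT without overlap (background 15.4%) and 0 lower (background 19.8%), with a median log2 fold change of 0.44. C4b, complement component C4, had 133, 202, 264 and 22.8 CPM and Il33, an alarmin cytokine, 318, 690, 725 and 370 CPM, both lower in PFC_4MPT than in HIP_4MPT. Serpina3n, a serine protease inhibitor raised in reactive glia, had 30.7, 65.1, 90.4 and 8.53 CPM. All 3 genes were highest in HIP_4MPT, whereas Sgk1 was highest in PFC_4MPT. The list was drawn up with earlier results of these data known, so its count is not independent evidence.

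**Figure D4:**
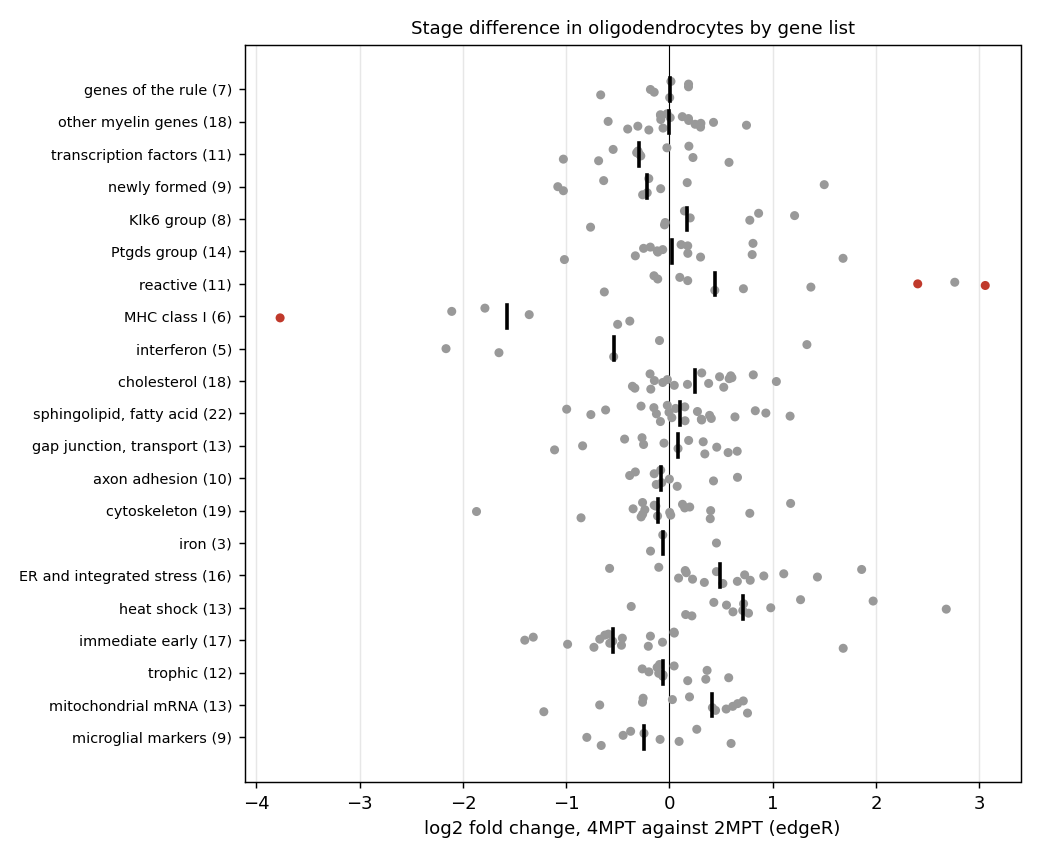
Log2 fold change between 4MPT and 2MPT in oligodendrocytes (x axis) for the genes of each list (y axis, number of genes tested in parentheses), one point a gene, called genes in red and the list median as a black bar. The list of other myelin genes centers on 0 (the genes of the rule are drawn as a description only). The MHC class I list, which also holds proteasome activator genes, lies below it with a median of -1.57. Heat shock genes center above it with a median of 0.71.

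The list of the MHC class I pathway, which presents peptides to cytotoxic T cells, had a negative log2 fold change in all 6 genes tested. These were H2-D1, H2-K1, H2-Q4 and B2m, and the proteasome activator genes Psme1 (-0.38) and Psme2 (-0.50), which are not class I genes themselves. H2-Q4 was the 1 called, and the median log2 fold change of the list was -1.57. Of the 6 genes 4, Psme2 among them, did not overlap between stages (66.7%, background 19.8%). H2-D1, a classical class I heavy chain, had 2336, 1706, 941 and 176 CPM in HIP_2MPT, PFC_2MPT, HIP_4MPT and PFC_4MPT. The levels were lower in that order, each 95% counting interval lying clear of the next, but the gene did not pass the test across libraries (log2 fold change -1.79 ± 0.47, adjusted p = 0.191). H2-K1, the other classical heavy chain, had 430, 156, 83.7 and 39.8 CPM (-2.11 ± 0.46, adjusted p = 0.0710). B2m, the light chain, had 615, 215, 239 and 58.3 CPM, where the stages overlapped (-1.36 ± 0.50, adjusted p = 0.679).

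Single libraries moved these values, and so did a stricter limit on human UMIs. With cells under 10% human UMIs the log2 fold change was -1.47 for H2-D1, -1.66 for H2-K1 and -0.37 for B2m. Without HIP_4MPT the log2 fold change was -3.47 for H2-D1 (adjusted p = 3.44e-10), -2.78 for H2-K1 and -2.74 for B2m (adjusted p = 1.41e-07), and without PFC_2MPT the 3 genes also passed. Without HIP_2MPT it was -1.49 (adjusted p = 0.162), -1.19 (0.998) and -0.39 (0.998), and without PFC_4MPT only H2-K1 of the 3 passed (adjusted p = 0.0102). At equal depth 61.9%, 40.4%, 47.9% and 9.40% of oligodendrocytes held a UMI of H2-D1 in HIP_2MPT, PFC_2MPT, HIP_4MPT and PFC_4MPT. The low library was PFC_4MPT, while HIP_4MPT lay between the 2MPT libraries. Unthinned, the shares were 75.0%, 45.8%, 66.2% and 18.6%.

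Class I transcripts are abundant in microglia and in the free RNA, and in both H2-D1 was highest in HIP_2MPT, as in oligodendrocytes. In microglia-like cells H2-D1 had 5633, 2486, 1567 and 1955 CPM, with PFC_4MPT above HIP_4MPT, unlike in oligodendrocytes. In the human cells mouse H2-D1 stood at 4011, 674, 743 and 309 CPM. On this scale that was above the level in oligodendrocytes in HIP_2MPT and PFC_4MPT. Mitochondrial mRNAs made up a larger part of the mouse UMIs of human cells, which lowers the CPM of other genes there. The part of microglia or of free RNA in the class I values was not tested. The ratio of H2-D1 to C1qa was 4.22, 14.6, 2.99 and 1.32 in oligodendrocytes but 0.909, 0.385, 0.270 and 0.289 in the human cells. In microglia-like cells it was 0.697, 0.312, 0.156 and 0.218. The 14.6 of PFC_2MPT rested on 18 UMIs of C1qa, 72.2% of them in 1 cell. MHC class II genes, led by Cd74, summed to 1721 CPM in HIP_2MPT and to 6.51 to 18.5 CPM in the other libraries, with 23716 CPM in other host cells of HIP_2MPT, and none had enough counts for the test between stages. Of 33 interferon genes only 5 could be tested, of which 0 were called and 4 were lower without overlap (background 19.8%), with a median of -0.54.

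Between the sites, none of 5462 genes was called in a fit with stage as a covariate, which left 1 residual degree of freedom (0% called, smallest adjusted p = 0.961). At an unadjusted p under 0.05 were 209 genes by edgeR and 28 by DESeq2, which called 0 as well. Of the 17 immediate early genes tested 8 were lower in PFC than in HIP without overlap over both stages (47.1%, background 13.7%), with a median log2 difference of -0.997 (PFC against HIP). Fos had 973 and 1137 CPM in the HIP libraries and 566 and 370 CPM in the PFC libraries, and Junb 645 and 509 CPM against 397 and 127 CPM. The 9 microglial markers tested were all lower in PFC without overlap, with a median of -1.47, and Fos stood at 2659 to 6531 CPM in microglia-like cells. The part of microglial RNA in this difference was not tested. Of the 6 genes of the MHC class I list tested between sites 0 were called, with a median of -1.36. That list includes the proteasome activator genes Psme1 (-0.44) and Psme2 (0.06). B2m (-1.83 ± 0.31, adjusted p = 0.961) and H2-D1 (-1.47 ± 0.49, adjusted p = 0.961) were lower in PFC in this fit. With 1 library left out, in fits without stage, the H2-D1 difference ran from -3.10 (without PFC_2MPT) to -0.15 (without HIP_2MPT) and -0.05 (without PFC_4MPT), and that of B2m from -2.71 to -1.05. Leaving out a library gave 1 to 7 genes higher and 15 to 29 lower in PFC, from 3 libraries.

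The change between stages was set against that in microglia-like cells of the same libraries to see whether it belonged to oligodendrocytes or to host cells at large. Among 9592 genes the interaction of cell type and stage passed for 3 (0.0313%), Arl4d with a more positive change in oligodendrocytes and Cadm2 and Fxyd1 with a more negative one (edgeR, adjusted p = 0.0446 for each). Sgk1 had a log2 fold change of 2.41 in oligodendrocytes and 0.19 in microglia-like cells, and Cdkn1a 3.06 and -0.98. The interaction itself was 2.54 ± 0.54 for Sgk1 (adjusted p = 0.180) and 4.17 ± 0.77 for Cdkn1a (adjusted p = 0.0649), so neither passed. DESeq2 gave adjusted p = 0.0023 for Sgk1 and 0.296 for Cdkn1a, and with all other host cells in place of microglia-like cells Cdkn1a passed (4.37, adjusted p = 0.0237) and Sgk1 did not (0.237). For H2-D1 the stage change was -1.79 in oligodendrocytes and -1.21 in microglia-like cells, and the interaction was -0.87 (adjusted p = 0.995). The median of this interaction over all genes was 0.21 by edgeR and -0.02 by DESeq2, so these values are read relative to it.

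Within a library mature markers were detected in some oligodendrocytes and not in others, and spread among cells beyond counting error was not tested. At equal depth Klk6 was detected in 16.7%, 5.26%, 12.8% and 5.98% of cells in HIP_2MPT, PFC_2MPT, HIP_4MPT and PFC_4MPT. Unthinned, the shares were 9.78%, 18.6%, 23.3% and 13.1%, and the richest cell, in HIP_4MPT, held 23 UMIs. Cells without a UMI of Klk6 may still express it at this depth. Ptgds was detected in 73.8%, 82.5%, 90.7% and 75.6% and Apod in 81.0%, 66.7%, 66.9% and 81.6% of cells at that depth. Both genes were present in most cells of every library, and the Ptgds interval of HIP_4MPT lay above those of HIP_2MPT and PFC_4MPT. In the grafted human cells at most 0.0706% held a UMI of Klk6.

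HIP_4MPT and PFC_4MPT, the pair of libraries with the most cells, differed in several of these shares. At equal depth Serpinb1a was detected in 15.9% of cells in HIP_4MPT (interval 11.9 to 20.6) and 30.3% in PFC_4MPT (24.5 to 36.7), C4b in 26.2% and 1.71%, Il33 in 46.6% and 26.5%, and Cdkn1a in 46.9% and 22.2%. The intervals of the 2 libraries did not overlap for any of these 4 genes. Opalin, a gene of the rule, was detected in 47.6%, 49.1%, 16.2% and 45.3% of cells by library, a share that the choice of cells conditions. The intervals cover counting error only, and with 1 library of each kind the site cannot be told apart from the library.

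**Figure D5:**
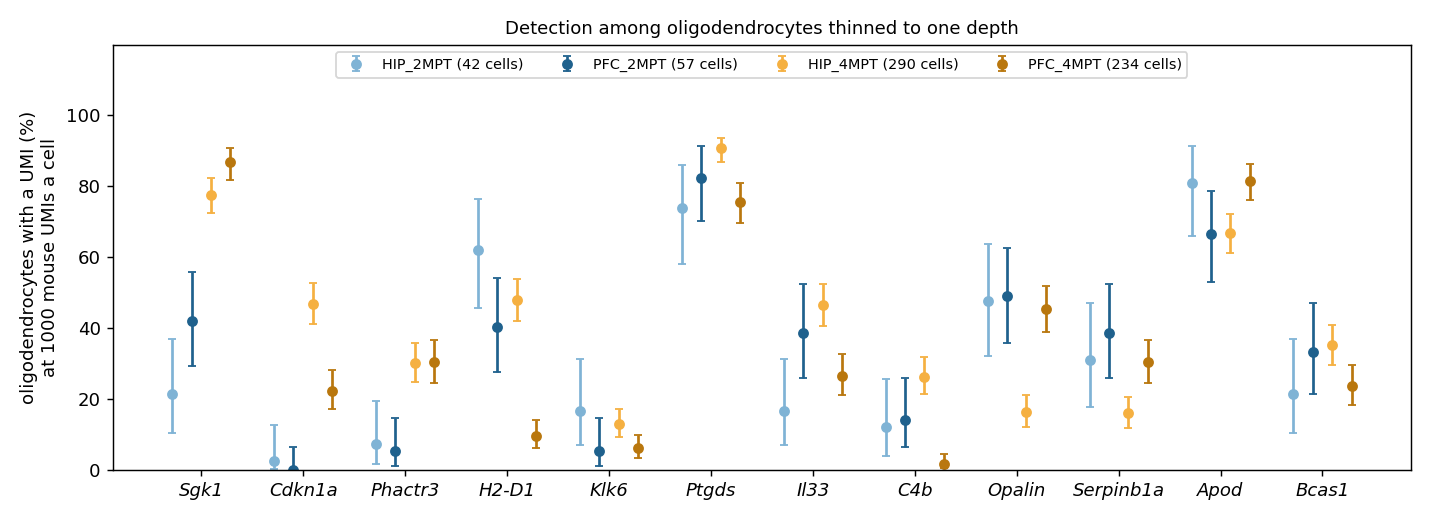
Percentage of oligodendrocytes with at least 1 UMI of a gene (y axis) for 12 genes (x axis) in each library, after every cell was thinned to 1000 mouse UMIs, with Clopper-Pearson 95% intervals and the number of cells used in the key. Sgk1 was found in 21.4% and 42.1% of cells at 2MPT and in 77.6% and 86.8% at 4MPT, and H2-D1 in 9.40% of cells in PFC_4MPT.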

How the data were processed

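Human organoid grafts from mouse prefrontal cortex or hippocampus were sequenced with 10x Genomics 3′ V3 chemistry as 4 libraries, 1 for each site and stage. The deposited values were UMI counts per gene and barcode, made by the authors with Cell Ranger 3.1 per their notes (the file headers name 5.0.0) against a joint human (GRCh38) and mouse reference, the latter mm10 in the feature names and GRCm39 in the methods of the study. The treatment of intronic reads is not given in the sources used here. Library totals were 14286046 to 33907594 UMIs. Counts were read in Python 3.11.15 with numpy 2.4.6, scipy 1.17.1 and pandas 2.3.3. Mouse UMIs were summed over the oligodendrocytes of each library and tested in R 4.3.3 with edgeR 4.0.16 (filterByExpr, TMM, glmQLFit and glmQLFTest, Benjamini-Hochberg, threshold 0.05). The models were stage alone, site with stage, and the interaction of cell type and stage with the library as a block. The study's methods tested over cells with MAST, which was not used because cells of 1 library are not replicates. DESeq2 1.42.0 was an alternative.

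CPM are per 1000000 mouse UMIs of the summed cells, and were not divided by gene length because 3′ counts do not scale with it. Grafted human cells were barcodes with over 80% human UMIs. Intervals are Clopper-Pearson for shares and Poisson for CPM at 95%, both covering counting error only; 3 counts, the limit that a count of 0 allows, equal 2.88 (HIP_4MPT) to 30.7 CPM (HIP_2MPT). Thinning drew UMIs without replacement to 500 or 1000 a cell. The tests were tested on simulated data. No doublet caller was run.

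The cells and gene lists were chosen with earlier results of these data known. Named genes were those of the lists with the highest mean CPM (2 to 4 a list) or called (up to 6 a list), and all called genes of each test where fewer than 10 were called. Added to these were the 15 genes outside the rule with the largest ratio to other host cells. Genes of the lists named for a difference in 1 library, or for lying near the threshold, were chosen after their values were seen. A few genes that the rule names are not reported here. The library of organoids before grafting holds no host cells and was not used. Alternatives were other thresholds of the rule, another filter, scaling and tool, a block for the site, and each library left out.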

Additional observations from a re-analysis of the deposited data

Results flagged for a closer look

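The change from 2MPT to 4MPT differed between oligodendrocytes and microglia-like cells for 3 genes, by the edgeR test of the interaction (adjusted p = 0.0446 for each, on the log2 scale). For Arl4d, a small GTPase of the ADP-ribosylation factor family, the difference was 4.01. Its level in oligodendrocytes was 0, 39.1, 78.9 and 235 CPM in HIP_2MPT, PFC_2MPT, HIP_4MPT and PFC_4MPT, from 0, 6, 82 and 165 UMIs, against 15.7, 48.2, 8.91 and 26.5 CPM in microglia-like cells. For Cadm2, a cell adhesion molecule of axons and oligodendrocytes, the difference was -4.49. Its level in oligodendrocytes was 287, 371, 252 and 256 CPM, and in microglia-like cells it was 2.42 and 0.741 CPM at 2MPT and 34.6 and 26.5 CPM at 4MPT, so the movement lay in the microglia-like cells. For Fxyd1, a regulator of the sodium pump, the difference was -9.82, a fitted value that depends on the prior count because microglia-like cells had 0 CPM in both 2MPT libraries. They had 267 CPM in HIP_4MPT and 10.5 CPM in PFC_4MPT, while oligodendrocytes had 40.98, 97.7, 87.5 and 31.3 CPM. Free mouse RNA in the human cells held Fxyd1 at 373 CPM in HIP_4MPT. The calls depended on the tool and on single libraries. DESeq2 called none of the 3 (adjusted p = 1 for Arl4d and 0.118 for Fxyd1 and Cadm2). Without PFC_2MPT none of them passed (0.248 for Arl4d, whose difference was then 10.29, 0.817 for Fxyd1 and 0.387 for Cadm2). Arl4d was also lost without HIP_2MPT (0.115) and Fxyd1 without HIP_4MPT (0.0596). With all other host cells in place of microglia-like cells, Fxyd1 and Cdkn1a passed (adjusted p = 0.0237 for both) and Arl4d and Cadm2 did not (0.159 and 0.436).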

How the results depend on the processing

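The counts of called genes depended on the settings, while none of the stage, site or interaction values recomputed for the called genes, Ddit4, Htra1, Rcan2, H2-D1, H2-K1, B2m, Fos and Junb changed direction. Between stages the genes higher and lower at 4MPT (4 and 1) became 2 and 1 by DESeq2, 2 and 0 with 5 or more genes of the rule, 2 and 0 with cells over 1000 mouse UMIs, 4 and 2 under 10% human UMIs, 30 and 33 with no filter on low counts, 0 and 0 without TMM, and 0 and 0 with the site as a replicate block. The labels give no replicate numbers or animals, so that block pairs libraries by site only. Leaving out 1 library gave 2 to 35 genes higher and 2 to 39 lower. Between sites (0 and 0) the counts were 4 higher and 22 lower in PFC with no filter, 1 and 3 under 10% human UMIs, and 1 to 7 and 15 to 29 with 1 library left out, fitted without stage. For the interaction with cell type (1 and 2) the counts were 1 (Sgk1) and 0 by DESeq2, 1 and 1 against all other host cells, 9 and 22 with no filter, and 0 to 27 and 7 to 34 with 1 library left out. The cause of these changes was not tested. A lone library of a stage or site is assumed to vary like the others in those fits. The difference in share (8.12 percentage points) was 11.1 over 1000 mouse UMIs, 15.1 under 10% human UMIs, 4.82 after thinning to 500 UMIs, and 5.45 to 10.8 with 1 library left out. Klk6 was detected in a mean of 10.2% of cells thinned to 1000 UMIs and 16.2% unthinned. The 97602 UMIs of HIP_2MPT limit its low genes most.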

Other observations

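A few genes outside the lists, chosen after their values were seen, also separated the stages without passing the test. Fkbp5, a co-chaperone of the glucocorticoid receptor, had 30.7, 13.02, 95.2 and 61.1 CPM in HIP_2MPT, PFC_2MPT, HIP_4MPT and PFC_4MPT, from 3, 2, 99 and 43 UMIs (edgeR, log2 fold change 2.03, adjusted p = 0.429). Pdk4, a kinase that inhibits pyruvate dehydrogenase, had 20.5, 26.0, 60.6 and 118 CPM (adjusted p = 0.428). Rcan2, an inhibitor of calcineurin, had 82.0, 130, 498 and 274 CPM (adjusted p = 0.0710), and Htra1, a secreted serine protease, had 113, 202, 879 and 250 CPM (adjusted p = 0.126). In the other direction Unc5b, a netrin receptor, had 318, 163, 61.5 and 61.1 CPM (log2 fold change -1.86, adjusted p = 0.0710). All 5 genes had both 4MPT libraries on one side of both 2MPT libraries, as 15.4% of genes had in the higher and 19.8% in the lower direction. Arid4a had the same adjusted p (0.0710) with 369 CPM in HIP_2MPT and 32.6, 26.9 and 15.6 CPM in the others, a difference of 1 library.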
